A study of Homo sapiens with 8 samples.

Results

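Sorafenib-resistant SK-Hep1 cells that had received a COL6A3 siRNA together with recombinant human endotrophin were compared with sorafenib-sensitive SK-Hep1 cells that had received a control siRNA. Both groups held 2 poly(A) RNA-seq libraries, so the comparison used 4 of the 8 libraries of the study. All genes with a symbol that passed a standard filter on low counts entered it, which left 15684 of 28278 named genes. The other 2 groups, again with 2 libraries each, were resistant cells with the control siRNA, called the resistant control here, and resistant cells with the COL6A3 siRNA and no endotrophin, called silenced cells. Endotrophin cells, as the first group is called below, therefore differed from sensitive cells in 3 ways at once: the line, the siRNA and the added protein. Within this single comparison those 3 differences cannot be told apart, and values against the resistant control and against silenced cells are set beside it for that reason.

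SK-Hep1 is an established human liver tumour line with endothelial features, and sorafenib is an oral inhibitor of RAF kinases and of receptor tyrosine kinases that is given for advanced hepatocellular carcinoma. Collagen VI is a microfibrillar matrix protein assembled from several chains, and the C-terminal end of the COL6A3 chain is cut off after secretion and released as endotrophin, a fragment known in adipose and tumour tissue for effects on matrix deposition, inflammation and survival signalling. An siRNA lowers the cell's own COL6A3 mRNA, while recombinant endotrophin puts back only the fragment, as a protein that leaves no RNA of its own. All cells grew in serum-containing medium. There was 1 sensitive and 1 resistant line. Libraries of a group are labelled biological replicates, but separate cultures or transfections are not mentioned, so the p-values measure only the spread between these samples. How long and at which dose endotrophin was given, which siRNA was used, how resistance arose and whether the cells were harvested in sorafenib are not stated in the labels. The labelled cell type is a cancer cell line, and 8 of 31 hepatocyte markers and 14 of 28 endothelial markers had enough counts to be tested. ALB (albumin), PECAM1 and CDH5 (endothelial junction proteins) were not among the genes tested.

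Library totals were 44116043 and 35397934 counts in endotrophin cells and 37096702 and 31476743 in sensitive cells, within a range of 30461668 to 44116043 over the 8 libraries. Replicates differed by more than counting noise, with a chi-square per degree of freedom of 15 in endotrophin cells and 18 in sensitive cells, so the spread between replicates sets the precision. Levels are given as CPM, counts for each 1000000 counts after TMM scaling, for both libraries of a group. Differences are log2 values from edgeR's quasi-likelihood model of all 8 libraries, where 1 is a 2-fold difference. Their SE was derived from that model's test statistic. The term "edgeR adjusted p" is the Benjamini-Hochberg adjusted p of the model's 2-sided test. A gene is said to be higher, lower, risen or fallen, or "called", where that p was under 0.05. In bulk RNA, fewer cells of a kind and less RNA per cell cannot be told apart.

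Endotrophin cells lay far from sensitive cells. Of the 15684 genes, 4209 were called, 2039 of them higher and 2170 lower in endotrophin cells, and 1195 were called with a difference of at least 2-fold, 561 higher and 634 lower. The called genes were 26.8% of those tested, with 13.0% higher and 13.8% lower, and the median log2 difference of all genes was 5.68e-05. Endotrophin and sensitive pairs did not overlap for 9671 genes, or 61.7%, and for 4207 of the 4209 called genes. The 95% interval of the difference lay within 2-fold in either direction for 8698 genes, 6501 of which were not called, while 4974 genes were neither called nor bounded within 2-fold. The called count fell to 3061 without endotrophin replicate 1 and to 3086 without endotrophin replicate 2.

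**Figure D1:**
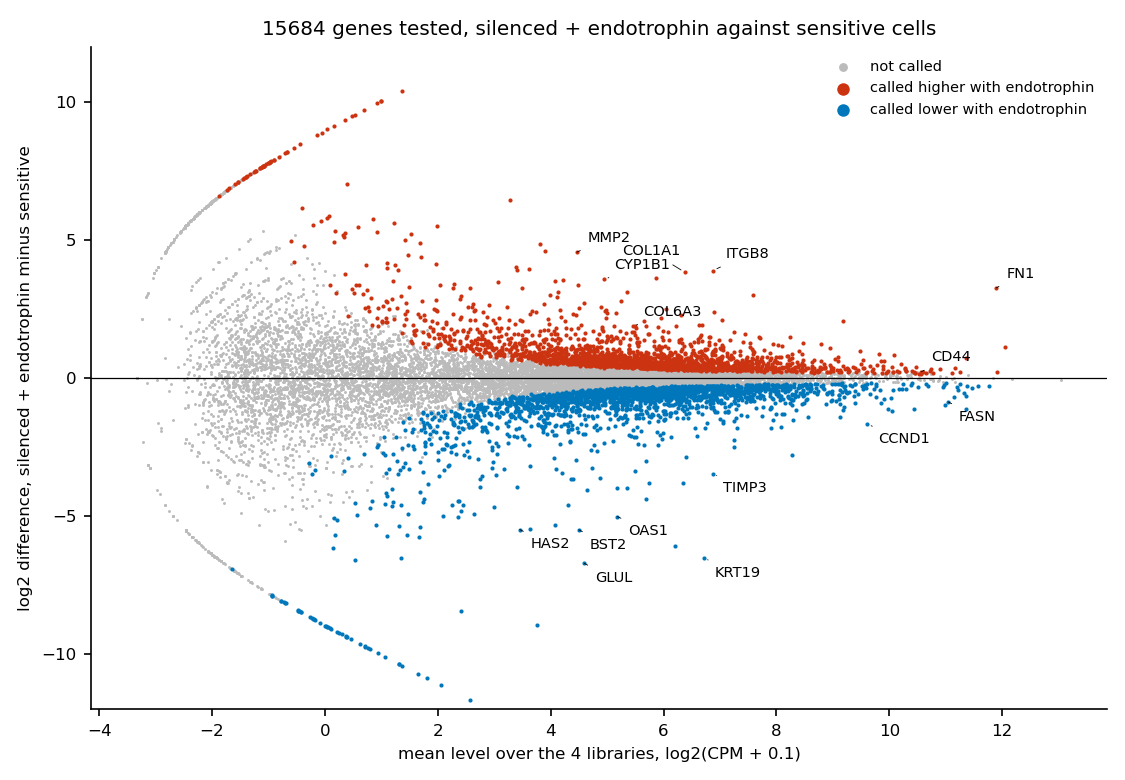
Each point is 1 of the 15684 genes: the mean level over the 4 libraries in log2 CPM on the horizontal axis, and the log2 difference of endotrophin cells from sensitive cells on the vertical axis, with called genes in colour. The 2039 higher and 2170 lower genes spread over the whole range of levels; the curved arms of points at low levels are genes with 0 counts in one group, whose fitted difference depends on the prior count.

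By root mean square distance, the 3 resistant groups lay at similar distances from sensitive cells, while fewer genes were called for the resistant control. Over 12414 genes that averaged 50 counts or more, the root mean square log2 distance between group means was 0.777 from sensitive to endotrophin cells, 0.763 from sensitive to silenced cells and 0.723 from sensitive cells to the resistant control. Without resistant control replicate 2 these were 0.790, 0.775 and 0.806, so the order depended on 1 library. Over all 15684 genes, including those near 0 counts whose fitted differences depend on the prior count, the fitted values were 1.55, 1.53 and 1.62 in the same order. The median size of the log2 difference over these genes was 0.381, 0.382 and 0.296. Over the 12414 genes, endotrophin cells were 0.587 from the resistant control and 0.391 from silenced cells. The 2 libraries of a group were 0.353 apart in endotrophin, 0.350 in silenced, 0.470 in resistant control and 0.494 in sensitive cells. That spread also enters the distances between group means. Single endotrophin libraries were 0.804 to 0.865 from single sensitive libraries. Counts of called genes describe comparisons that share libraries, and their shares of all genes are the background for the list counts below. For endotrophin against sensitive cells these were the 13.0% higher and 13.8% lower given above. Of the genes tested, 15.8% were called in the resistant control against sensitive cells (6.52% higher, 9.30% lower) and 27.6% in silenced cells against sensitive cells (13.1% higher, 14.5% lower). Endotrophin cells differed from the resistant control in 19.0% (10.1% higher, 8.93% lower) and from silenced cells in 7.77% of genes (4.41% higher, 3.36% lower). The last share rests on few libraries: 1218 genes were called there, 651 without endotrophin replicate 2, 703 without silenced replicate 1 and 772 without endotrophin replicate 1. Against the resistant control, 2981 genes were called, and 1972 without endotrophin replicate 2.

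Collagen VI mRNA was higher in endotrophin cells than in sensitive cells for all 3 of the chains tested, including the one the siRNA targets. COL6A3, the chain that carries endotrophin (chromosome 2, 237324018 to 237414164 in GRCh38), was at 17.8 and 19.7 CPM in sensitive and 65.9 and 71.3 CPM in endotrophin cells, a log2 difference of 1.87 (SE 0.12; edgeR adjusted p = 5.56e-11). The resistant control held 135 and 136 CPM and silenced cells 42.7 and 45.0 CPM, so every resistant library, with either siRNA, lay above both sensitive libraries. Against the resistant control, endotrophin cells were at -0.98 (SE 0.11), and against silenced cells at 0.65 (SE 0.11). The counts are summed over the whole gene and do not separate the end that encodes the fragment.

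The partner chains were high in both groups with the COL6A3 siRNA and not in the resistant control. COL6A1 (chromosome 21, 45981770 to 46005048) was at 50.5 and 54.2 CPM in sensitive cells, 30.0 and 41.1 in the resistant control, 121 and 135 in silenced cells and 125 and 124 in endotrophin cells. It stood at 1.25 (SE 0.13; edgeR adjusted p = 1.01e-07) against sensitive cells and at 1.81 (SE 0.13) against the resistant control, with no difference called from silenced cells at -0.043. COL6A2 (chromosome 21, 46098112 to 46132848) went from 104 and 115 to 269 and 256 CPM, a difference of 1.26 (SE 0.10), and was also not called against silenced cells at 0.17. BMP1, the procollagen C-proteinase, was at 17.1 and 20.4 CPM in sensitive, 15.3 and 13.3 in resistant control, 39.9 and 45.5 in silenced and 47.0 and 52.5 in endotrophin cells. Among surface receptors, ITGA2, the alpha-2 integrin chain, was 1.50 (SE 0.085) higher, from 104 and 112 to 312 and 302 CPM. MMP14, a membrane-bound protease that can cut collagen VI chains, was 0.99 (SE 0.085) higher, ITGB1, the common beta chain of collagen-binding integrins, 0.38 (SE 0.053), and ANTXR1, the anthrax toxin receptor known as an endotrophin receptor, 0.23 (SE 0.077). The ANTXR1 difference was not called at 0.18 without sensitive replicate 1 or at 0.19 without endotrophin replicate 1. In the list of collagen VI chains, processing enzymes and receptors, 9 of 13 members rose and 0 fell, with a median of 1.25. The same list had 4 higher in the resistant control and 7 in silenced cells, against sensitive cells.

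CD44, the receptor for hyaluronan and osteopontin, was an abundant mRNA that differed little. It was at 1408 and 1382 CPM in sensitive and 1641 and 1630.0 CPM in endotrophin cells, a rise of 0.23 (SE 0.051; edgeR adjusted p = 0.00143). The pairs did not overlap, as in 61.7% of all genes tested. Genes for its ligands differed more. HAS2, which makes long hyaluronan, fell from 18.4 and 24.1 to 0.297 and 0.656 CPM (-5.49 (SE 0.53; edgeR adjusted p = 5.26e-08)), and HAS3 was at -1.24 (SE 0.12). VCAN, the hyaluronan-binding proteoglycan versican, rose from 3.92 and 3.92 to 22.9 and 19.7 CPM, by 2.44 (SE 0.21). SPP1, which encodes osteopontin, was lower than in any other group, at 156 and 163 CPM against 223 and 207 in sensitive, 277 and 294 in resistant control and 325 and 304 in silenced cells. That is -0.43 (SE 0.082) against sensitive cells and -0.98 (SE 0.082) against silenced cells. Among other members of the list, EZR (ezrin), a linker between CD44 and actin, was at -0.74 (SE 0.074) and NF2 (merlin) at -0.90 (SE 0.12). Of the 15 members of the list tested, 5 rose and 7 fell, with a median of -0.39; without sensitive replicate 1 or without endotrophin replicate 1, 3 rose.

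Matrix genes differed in both directions. Fibronectin, fibrillin-1 and the collagen chains COL1A1 and COL5A1 were among the strongest rises. A basement-membrane laminin chain, collagen V's alpha-2 chain and the inhibitor TIMP3 were among the strongest falls. FN1, fibronectin (chromosome 2, 215360865 to 215436068), was at 691 and 745 CPM in sensitive cells, 2728 and 2916 in the resistant control, 5533 and 6073 in silenced and 7198 and 6604 in endotrophin cells. The difference from sensitive cells was 3.27 (SE 0.058; edgeR adjusted p = 1.15e-20), and the endotrophin libraries lay above all 6 others. COL1A1, the main chain of fibrillar collagen I, was at 11.2 and 10.5 CPM in sensitive and 152 and 158 CPM in endotrophin cells, 3.84 (SE 0.13; edgeR adjusted p = 2.09e-15), with 25.3 and 31.1 in the resistant control and 129 and 143 in silenced cells. FBN1 (fibrillin-1) rose by 3.61 (SE 0.17), from 10.9 and 6.70 to 116 and 101 CPM, and COL5A1 by 3.03 (SE 0.11), from 37.6 and 46.7 to 366 and 321 CPM. The partner chain COL5A2 went the other way, from 33.3 and 33.8 to 1.94 and 4.34 CPM (-3.43 (SE 0.35)), so these 2 chains of collagen V moved in opposite directions.

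LAMB1, a laminin beta chain, fell from 378 and 366 to 107 and 107 CPM (-1.80 (SE 0.094)), and COL18A1, the basement-membrane collagen that contains endostatin, from 70.2 and 78.4 to 18.0 and 15.4 CPM (-2.15 (SE 0.18)). SPARC, a collagen-binding glycoprotein, was 1.13 (SE 0.044) higher, and TNC (tenascin-C) 1.51 (SE 0.17) higher. Of 39 matrix glycoproteins tested, 17 rose and 8 fell, with a median of 0.35. Of 23 collagens other than VI, 7 rose and 5 fell, with a median of 0.13; 4 rose without sensitive replicate 1 or without endotrophin replicate 1.

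Among matrix proteases, the gelatinases MMP2 and MMP9 rose from low levels. MMP2 was at 2.52 and 0.972 CPM in sensitive, 12.7 and 13.6 in resistant control, 46.5 and 61.8 in silenced and 40.4 and 44.1 CPM in endotrophin cells, a difference of 4.56 (SE 0.27; edgeR adjusted p = 2.01e-11). MMP9 went from 1.48 and 4.47 to 37.0 and 31.5 CPM (3.54 (SE 0.33)) and ADAMTS12, a secreted metalloprotease, from 1.59 and 1.36 to 24.9 and 21.1 CPM (3.96 (SE 0.22)). ADAMTS12 was at 31.5 and 35.1 CPM in the resistant control, above the endotrophin pair. TIMP3, a matrix-bound metalloprotease inhibitor, fell from 213 and 216 to 18.8 and 20.1 CPM (-3.46 (SE 0.14; edgeR adjusted p = 6.52e-14)). It was lower still in the resistant control, at 3.56 and 5.21 CPM, so endotrophin cells stood at 2.15 (SE 0.16) against that group. LOX, the collagen cross-linking oxidase, stood at -1.48 (SE 0.10) and SERPINE2, a protease inhibitor, at -1.82 (SE 0.10). Both were again above the resistant control, by 0.91 and 0.96. Of 41 remodelling enzymes and inhibitors, 14 rose and 9 fell, with a median of 0.15.

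ITGB8, the integrin chain that pairs with alpha-V and activates latent TGF-beta, was high in both groups with the COL6A3 siRNA. Its level (chromosome 7, 20329766 to 20415754) was 16.0 and 13.5 CPM in sensitive and 13.2 and 12.4 in resistant control cells, but 197 and 185 in silenced and 225 and 215 in endotrophin cells. The difference was 3.90 (SE 0.12; edgeR adjusted p = 3.96e-16) against sensitive cells and 4.10 (SE 0.12) against the resistant control. The 4 libraries with the COL6A3 siRNA lay far above the 4 with the control siRNA. Its partner ITGAV rose by 0.93 (SE 0.094) from 137 and 129 to 264 and 243 CPM. Of 27 integrin and focal-adhesion genes, 9 rose and 4 fell, where 13.0% of all genes rose and 13.8% fell. Among the 4 were ILK, integrin-linked kinase, at -1.57 (SE 0.29) and BCAR1, the adaptor p130Cas, at -1.46 (SE 0.12).

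**Figure D2:**
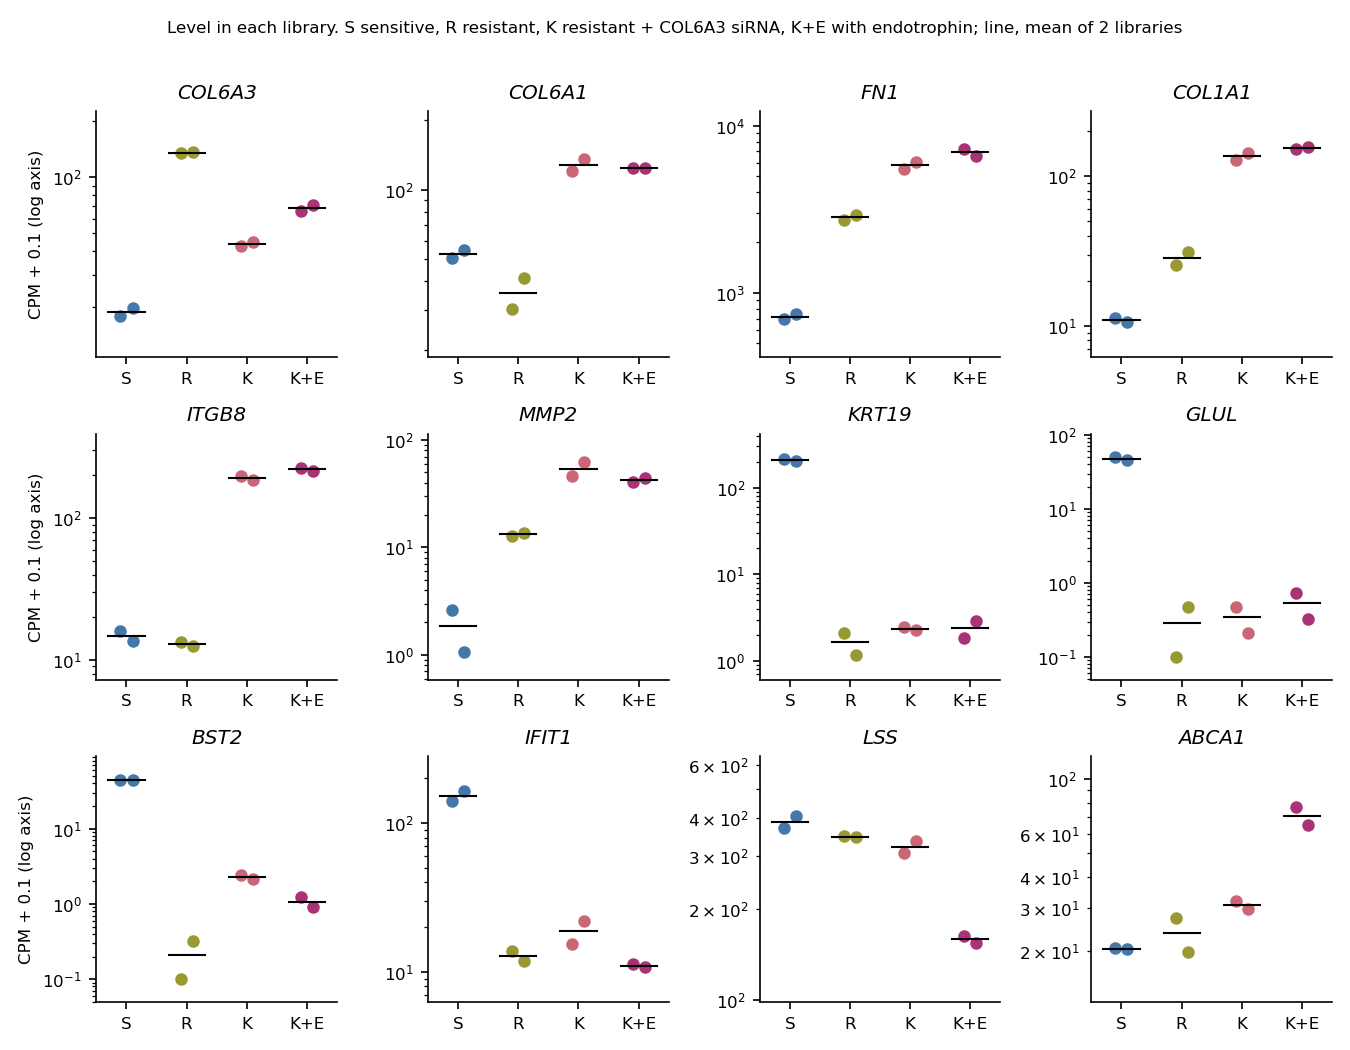
Level of 12 genes in each of the 8 libraries, as CPM plus 0.1 on a log axis, with 1 point for each library and colours for the 4 groups. FN1, COL1A1, ITGB8 and MMP2 are highest in the groups with the COL6A3 siRNA, KRT19, GLUL, BST2 and IFIT1 are low in all 3 resistant groups, and LSS and ABCA1 set the endotrophin libraries apart from the other 6.

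Interferon-stimulated genes were lower as a group. They are switched on through a receptor-activated factor complex that contains STAT2 and IRF9 and binds the interferon-stimulated response element, and encode antiviral proteins such as tetherin (BST2), the MX1 GTPase and the OAS enzymes. Of the 41 tested, 35 fell and 0 rose in endotrophin cells, with a median of -1.90, beside the 13.8% of all genes that fell. Their promoter sequence is shown because this element is known to switch such genes on. RefSeq sequence for GRCh38.p14, from 250 bases before to 50 after the annotated start, was found for 31 of the 41 tested members. The letters GAAANNGAA, searched on both strands as a core of the response element and allowed to overlap themselves, were in 22 of these 31 windows (71.0%). They were in 8.29% of 27305 RefSeq promoter windows and in 6.71% of 11742 windows of tested genes. Among members that fell, 18 of 25 windows held them. A match describes the letters and is not a measured binding site. The 4 stretches below lie wholly before the start, are read 5′ to 3′ on the gene's strand, and have the matched letters in capitals, in runs where matches overlap; in IFIT1 the match is to the reverse complement TTCNNTTTC.
BST2, chr19:17405711-17405795, minus strand: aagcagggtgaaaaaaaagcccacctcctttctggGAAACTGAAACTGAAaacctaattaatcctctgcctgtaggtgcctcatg
IFIT1, chr10:89392473-89392564, plus strand: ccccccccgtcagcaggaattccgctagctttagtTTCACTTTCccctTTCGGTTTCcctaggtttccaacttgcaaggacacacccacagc
ISG15, chr1:1013349-1013439, plus strand: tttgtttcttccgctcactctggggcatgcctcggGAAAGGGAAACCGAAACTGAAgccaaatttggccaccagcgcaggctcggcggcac
IFI44L, chr1:78620340-78620418, plus strand: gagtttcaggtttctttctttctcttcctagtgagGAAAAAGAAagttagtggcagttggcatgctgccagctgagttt

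BST2, whose promoter holds a run of 2 overlapping matches, fell from 43.9 and 44.5 CPM in sensitive to 1.12 and 0.799 in endotrophin cells (-5.51 (SE 0.35; edgeR adjusted p = 5.57e-11)). It was at 0 and 0.221 CPM in the resistant control and 2.33 and 2.07 in silenced cells, so every resistant library lay far below both sensitive ones. IFIT1, a sensor of foreign RNA caps, went from 139.7 and 163 to 11.2 and 10.6 CPM (-3.79 (SE 0.17; edgeR adjusted p = 2.77e-13)), with 13.7 and 11.7 in the resistant control. ISG15, the ubiquitin-like modifier, went from 40.3 and 49.9 to 7.85 and 6.76 CPM (-2.62 (SE 0.27)); it was at 2.07 and 4.90 CPM in the resistant control. IFI44L was at 4.36 and 5.25 CPM in sensitive cells and had 0 counts in both endotrophin libraries. Against a floor of 3 counts in each library it was at least 62.3-fold lower. Log2 differences were -5.02 for OAS1, -4.61 for MX1, -3.37 for OAS2 and -2.87 for IFI6. None of the genes in this paragraph overlapped between sensitive and endotrophin libraries. The same held for 61.7% of all genes tested and for 4207 of the 4209 called genes.

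The genes that relay the interferon signal were lower as well. IRF9 fell from 44.5 and 57.9 to 10.6 and 9.13 CPM (-2.37 (SE 0.20)) and IRF7 from 23.1 and 22.5 to 6.72 and 5.85 CPM (-1.86 (SE 0.25)). STAT2 was at -1.22 (SE 0.14), and was the only one of these 3 that was called below silenced cells, at -0.91 (SE 0.14). IRF1 was not called, at 0.24. As a list, interferon genes had 36 members lower in the resistant control and 30 lower in silenced cells against the same sensitive libraries, with medians of -2.13 and -1.55. Endotrophin cells lay above the resistant control in 13 members and below in 3, and below silenced cells in 10 members and above in 1, with medians of 0.30 and -0.34. Against silenced cells, OAS1 stood at -1.68 (SE 0.32), or at -1.05 without silenced replicate 1.

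Antigen presentation followed in part. HLA-B fell from 66.2 and 78.9 to 17.3 and 15.4 CPM (-2.15 (SE 0.16)) and HLA-C from 114 and 134 to 53.5 and 50.04 CPM (-1.26 (SE 0.13)), while their partner B2M stood at -0.25 (SE 0.068), or at -0.19 and not called without endotrophin replicate 1. HLA genes have near-identical copies and variable alleles, so their counts are uncertain. PSMB8, an immunoproteasome subunit, stood at -0.86 (SE 0.11). Of 25 genes of the list, 16 fell and 1 rose, with a median of -0.41; without endotrophin replicate 1, 10 fell.

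Against each of the 3 other groups, taken 1 at a time, most tested genes of cholesterol and fatty-acid synthesis were lower in endotrophin cells. The SREBP factors switch these genes on when membrane sterol is low, and the liver X receptors switch on the exporter ABCA1 when sterol is high. Of 39 members tested, 27 fell and 3 rose, with a median of -0.64. The endotrophin libraries stood at -0.60 and -0.64 as list medians relative to the sensitive mean, where the resistant control libraries stood at -0.08 and -0.12 and the silenced ones at -0.04 and 0.04. Against the resistant control, 23 members were lower and 3 higher, and against silenced cells, 27 lower and 2 higher, with medians of -0.51 and -0.68. Resistant control and silenced cells had 6 and 5 members lower than sensitive cells, and 6 and 11 higher.

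LSS, lanosterol synthase (chromosome 21, 46188446 to 46228774), was at 372 and 406 CPM in sensitive, 348 and 347 in resistant control, 307 and 336 in silenced and 163 and 155 in endotrophin cells. The difference was -1.29 (SE 0.08; edgeR adjusted p = 4.77e-11), and against silenced cells it was -1.02 (SE 0.08). ACAT2, which makes acetoacetyl-CoA, fell from 117 and 125 to 50.03 and 46.9 CPM (-1.32 (SE 0.10)), MSMO1, a sterol demethylating oxidase, from 166 and 179 to 76.0 and 72.6 CPM (-1.22 (SE 0.10)), and FDFT1, squalene synthase, from 323 and 323 to 149.7 and 158 CPM (-1.07 (SE 0.078)). In each of these 4 genes the endotrophin libraries lay below all 6 others. How common that order is among all genes tested was not counted. FASN, fatty-acid synthase, was at 2507 and 2958 CPM in sensitive, 3618 and 4383 in resistant control, 2208 and 2795 in silenced and 1572 and 1423 CPM in endotrophin cells, or -0.87 (SE 0.091) and, against the resistant control, -1.42 (SE 0.092). ACSS2, the acetate-activating synthetase, was at -1.35 (SE 0.14) against sensitive and -1.32 (SE 0.14) against silenced cells, but at -0.37, not called, against the resistant control.

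Members that sense, desaturate or move lipid were mixed. INSIG1, which holds SREBP in the endoplasmic reticulum, was lower at -0.58 (SE 0.068). SREBF2, which encodes SREBP2, was not called, at -0.22. SCD, the stearoyl-CoA desaturase, was at 2179 and 2195 CPM in sensitive, 3562 and 3740.4 in silenced and 1966 and 1874 in endotrophin cells. HMGCS1, the HMG-CoA synthase, was at 335 and 349.8, 609.7 and 586 and 244 and 248 CPM in the same groups. Both were called above sensitive cells in silenced cells and below them in endotrophin cells. Among the rises was ABCA1, from 20.5 and 20.4 to 76.9 and 64.9 CPM (1.80 (SE 0.16; edgeR adjusted p = 1.51e-08)), with 27.2 and 19.8 in the resistant control and 31.8 and 29.7 in silenced cells. STARD4, a sterol carrier, rose by 0.52, and was at 270.3 and 285 CPM in silenced and 292 and 279 CPM in endotrophin cells. The 9-letter core TCACNCCAC of the sterol regulatory element, searched on both strands in the same windows, was in 1 of 31 members' promoters, that of SREBF2, beside 1.15% of all windows and 1.03% of windows of tested genes; it was in 0 of the 21 windows of members that fell.

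**Figure D3:**
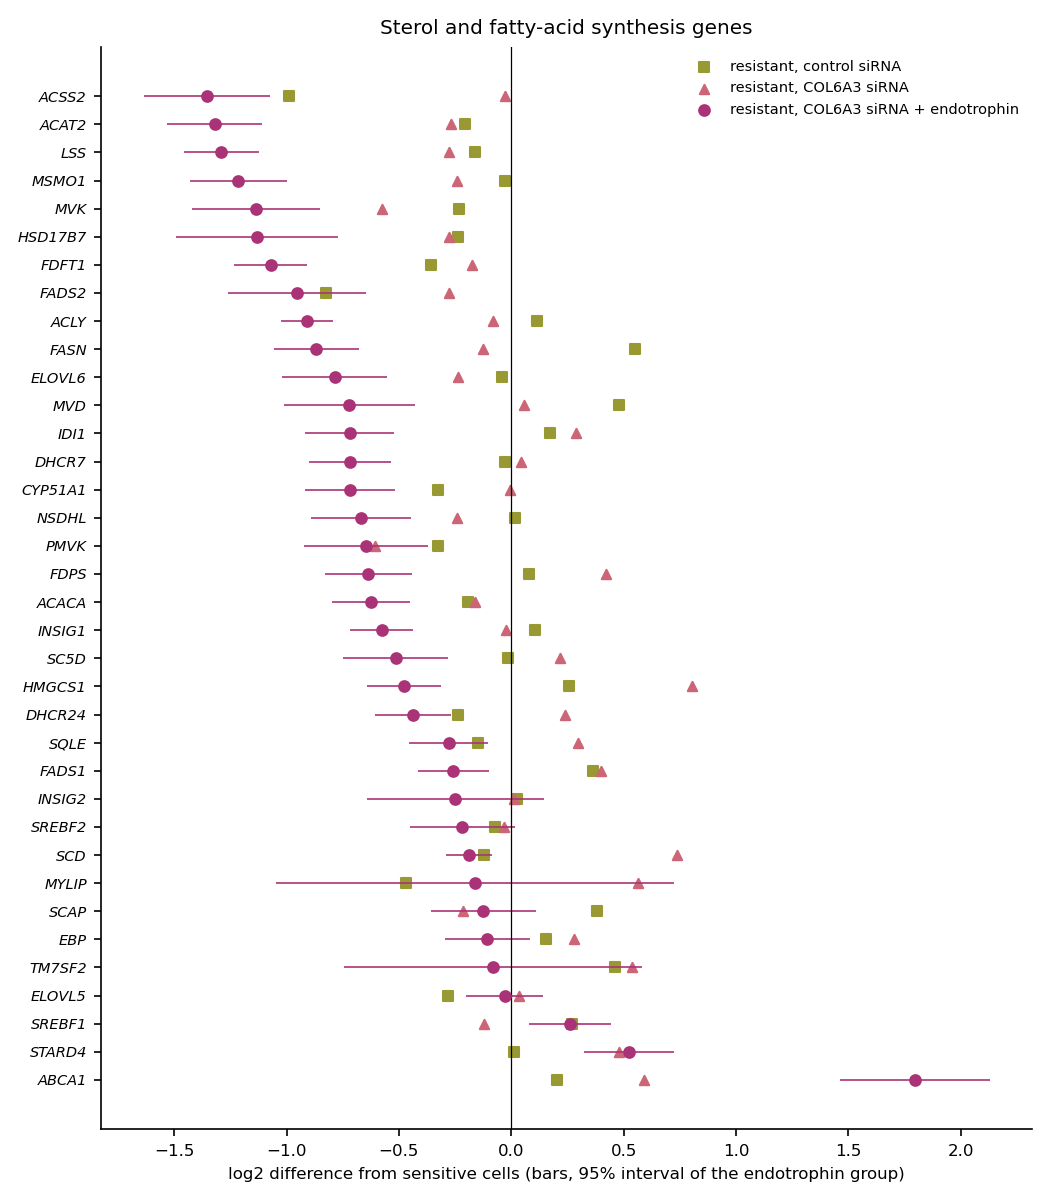
Log2 difference from sensitive cells for 36 of the 39 tested sterol and fatty-acid genes in the endotrophin, silenced and resistant control groups, with 1 row for each gene and bars for the 95% interval of the endotrophin group. Most endotrophin points lie to the left of the other groups' points, with a list median of -0.64, and ABCA1 lies to the right at 1.80.

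In both the chaperone and the amino-acid stress lists, 17 of 32 members fell and 4 rose. HSPA8, the constitutive HSP70, was at 2768 and 2626 CPM in sensitive, 2506 and 2554 in resistant control, 1936 and 1925 in silenced and 1353 and 1389 CPM in endotrophin cells (-0.98 (SE 0.048; edgeR adjusted p = 1.71e-12)). The inducible HSP70 genes HSPA1A and HSPA1B, near-identical copies that can share reads, were at -1.20 and -1.43 against sensitive cells, and at -0.86 and -1.19 against silenced cells. In the endoplasmic reticulum, the chaperone HSPA5 (BiP) was at -0.69 (SE 0.061), MANF, a secreted stress-induced protein, at -1.06 (SE 0.10), and the transcription factor XBP1 at -1.15 (SE 0.15) against sensitive cells. Of 32 members of that list, 17 fell and 4 rose, with a median of -0.28; in the resistant control, 6 were lower.

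ATF4, the factor that drives genes of amino-acid supply, was at 334 and 308 CPM in sensitive and 198 and 207 CPM in endotrophin cells (-0.66 (SE 0.084)). Its target TRIB3, a pseudokinase, fell from 88.4 and 98.9 to 22.9 and 25.1 CPM (-1.96 (SE 0.13)), CHAC1, a glutathione-degrading enzyme, from 7.67 and 4.83 to 0.0915 and 0.513 CPM (-4.38 (SE 0.83)) and the cystine transporter SLC7A11 from 59.0 and 56.3 to 23.2 and 21.6 CPM (-1.36 (SE 0.16)). SLC7A5, the leucine transporter of the same list, rose instead, from 459.9 and 501 to 952 and 961 CPM (0.99 (SE 0.074)), above all 6 other libraries. The list had 17 of 32 members lower and 4 higher, with a median of -0.58, and 16 were lower in the resistant control.

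The NRF2 and ferroptosis list was split between NQO1, the quinone reductase, at 82.9 and 87.2 CPM in sensitive and 15.4 and 16.1 CPM in endotrophin cells (-2.43 (SE 0.15; edgeR adjusted p = 3.79e-11)), and GPX1, the glutathione peroxidase, at 146 and 148 and 315 and 369 CPM (1.22 (SE 0.10)). HMOX1, heme oxygenase, rose by 1.16 (SE 0.13), to 73.4 and 83.3 CPM, and was called above both the resistant control, at 1.29, and silenced cells, at 0.60. The latter was not called at 0.47 without silenced replicate 1 or at 0.51 without endotrophin replicate 2. AIFM2, the ferroptosis suppressor FSP1, was lower at -1.82 (SE 0.20). In all, 16 of 37 fell and 6 rose, with a median of -0.29.

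Replication genes of endotrophin cells stood close to those of sensitive cells, and above those of silenced cells in most members. Against sensitive cells, 4 of 45 S-phase genes rose and 2 fell, which left 39 not called, with a median of 0.0023. For 44 of the 45 the 95% interval lay within 2-fold, as for 55.5% of all genes tested. Against silenced cells, 31 were higher and 0 lower, beside 4.41% and 3.36% of all genes. Silenced cells themselves had 32 members below sensitive cells, beside 14.5% of all genes. MCM2, a subunit of the replicative helicase, shows the order: 178 and 182 CPM in sensitive, 189 and 191 in resistant control, 98.0 and 120.5 in silenced and 151 and 176 in endotrophin cells, not called against sensitive cells at -0.14. E2F1 and RRM2, the transcription factor and the ribonucleotide reductase subunit, were among the 4 that rose, by 0.64 and 0.61. CDC6, a replication licensing factor, was 1 of the 2 that fell, or the only one with any library left out, from 87.6 and 86.1 to 52.1 and 57.2 CPM (-0.67 (SE 0.11)), with 38.4 and 36.3 in silenced cells.

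Mitotic genes were lower in part. Of 44 tested, 20 fell and 5 rose, with a median of -0.22; without sensitive replicate 2 or either endotrophin replicate, 1 rose. PRC1, which bundles spindle microtubules, was at 173 and 166 CPM in sensitive, 66.0 and 57.5 in silenced and 86.5 and 92.5 in endotrophin cells (-0.92 (SE 0.10)). CDC25B, a phosphatase that activates mitotic CDK1, was at 54.5 and 61.1 CPM against 114 and 124 in sensitive cells (-1.04 (SE 0.11)) and was not called against silenced cells, at -0.11. CCNB1, cyclin B1, stood at -0.32 (SE 0.079), or at -0.26 and not called without endotrophin replicate 1. MKI67, the proliferation marker Ki-67, was not called, at -0.19, but was called at -0.26 without sensitive replicate 2, at -0.27 without endotrophin replicate 1, at -0.19 with DESeq2 and at -0.20 with a stricter low-count filter. The list had 36 of its members lower in silenced than in sensitive cells and 5 lower in the resistant control.

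The G1 regulator CCND1, cyclin D1, did not follow that pattern. It was at 1121 and 1259.5 CPM in sensitive and 1011 and 996 in resistant control cells, and at 390.3 and 399.7 in silenced and 366 and 380.5 CPM in endotrophin cells, a log2 difference of -1.67 (SE 0.067; edgeR adjusted p = 4.63e-14). Endotrophin cells were not called against silenced cells, at -0.082. MYC stood at -0.41 (SE 0.082) and CDKN1A, the CDK inhibitor p21, at -0.40 (SE 0.09). Of 17 G1 genes, 5 fell and 0 rose.

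Several p53 targets were high with the COL6A3 siRNA, endotrophin or not. TP53INP1, a stress-induced co-activator, was at 33.3 and 32.3 CPM in sensitive, 31.6 and 29.6 in resistant control, 115 and 117 in silenced and 92.8 and 91.4 in endotrophin cells (1.49 (SE 0.11; edgeR adjusted p = 8.93e-10)). ZMAT3, an RNA-binding p53 target, rose by 1.48 (SE 0.10) and RRM2B, the p53-induced ribonucleotide reductase subunit, by 1.17 (SE 0.12), and MDM2, which degrades p53, by 0.40 (SE 0.075). TNFRSF10A, the death receptor DR4, fell from 22.1 and 24.0 to 5.65 and 6.33 CPM (-1.94 (SE 0.23)). Of 32 members, 13 rose and 7 fell, with a median of 0.24, where the resistant control had 1 higher and 13 lower than sensitive cells.

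Signalling readouts moved in different directions. Targets of YAP and TEAD, the factors of the Hippo pathway, were mostly lower: 19 of 32 fell and 4 rose, with a median of -0.41. ANKRD1, a common marker of that pathway, was at 166 and 146 CPM in sensitive, 78.3 and 73.4 in resistant control, 61.1 and 64.7 in silenced and 34.8 and 37.4 in endotrophin cells (-2.12 (SE 0.11; edgeR adjusted p = 4.63e-12)), lowest in the endotrophin pair. AMOTL2, a YAP-binding angiomotin, was at -1.50 (SE 0.087), F3 (tissue factor) at -1.56 (SE 0.10) and CCN1, a secreted matricellular protein, at -0.77 (SE 0.061). WWTR1, which encodes the YAP paralog TAZ, was itself at 156 and 177 CPM in sensitive and 46.9 and 47.6 CPM in endotrophin cells (-1.82 (SE 0.11)), and lower still, at 32.7 and 29.6 CPM, in the resistant control.

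TGF-beta targets were split, with 14 of 37 higher and 10 lower, or 6 lower without endotrophin replicate 1. INHBA, the activin A subunit, rose from 31.2 and 43.7 to 203 and 195 CPM (2.41 (SE 0.12; edgeR adjusted p = 3.79e-12)), with 85.7 and 81.4 in the resistant control and 144 and 136 in silenced cells, so the endotrophin pair lay above all others. PMEPA1, a TGF-beta feedback inhibitor, went from 0.274 and 0 to 4.96 and 5.93 CPM, and GREM1, a secreted BMP antagonist, fell from 34.3 and 42.9 to 6.24 and 3.62 CPM (-2.96 (SE 0.26)). Of the ligands, TGFB1 rose by 0.78 (SE 0.14) and TGFB2 was lower at -1.27 (SE 0.14).

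Among immediate-early and ERK feedback genes, 16 of 34 rose and 8 fell, with a median of 0.41. FOSB, an AP-1 subunit, was at 1.67 and 0.518 CPM in sensitive, 3.34 and 1.93 in resistant control, 1.23 and 2.70 in silenced and 9.15 and 12.2 in endotrophin cells (3.26 (SE 0.54)). DUSP7 and DUSP6, phosphatases that switch off ERK, rose by 1.40 and 0.68, while DUSP1, a phosphatase of the stress kinases, was lower at -1.69 (SE 0.18). Of the kinases that sorafenib inhibits, 4 of 15 rose and 2 fell, or 1 fell without endotrophin replicate 2. FGFR1 was higher by 1.12 (SE 0.10), from 76.6 and 89.7 to 179 and 183 CPM, and KIT was lower at -1.03 (SE 0.17). KDR and FLT3, other targets of the drug, were not among the genes tested. Of 39 growth-factor ligands and receptors, 6 rose and 9 fell, where 13.0% of all genes rose and 13.8% fell. IGF1R rose from 29.1 and 24.2 to 82.7 and 78.1 CPM (1.59 (SE 0.13)) and MET, the hepatocyte growth factor receptor, fell from 318 and 336 to 176 and 172 CPM (-0.91 (SE 0.085)), with 184 and 168 in the resistant control and 166 and 177 in silenced cells. EGFR was not called, at 0.13.

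Drug handling changed in single genes. Over all genes tested, 13.0% rose and 13.8% fell. CYP1B1, a cytochrome P450 that oxidises steroids and aromatic compounds, was at 5.42 and 4.05 CPM in sensitive, 1.46 and 3.06 in resistant control, 45.7 and 44.1 in silenced and 58.8 and 54.7 in endotrophin cells (3.58 (SE 0.23; edgeR adjusted p = 5.57e-11)). ALDH1A3, a retinaldehyde dehydrogenase, went from 7.70 and 4.92 to 41.2 and 42.8 CPM (2.73 (SE 0.22)), and NNMT, nicotinamide N-methyltransferase, fell from 109 and 97.4 to 21.9 and 23.3 CPM (-2.19 (SE 0.14)). Of 31 xenobiotic genes 6 rose and 7 fell, or 3 fell without endotrophin replicate 1 and 4 without sensitive replicate 1. Of 22 drug transporters 1 rose, ABCA1 as given above, and 5 fell; 2 rose without sensitive replicate 1. The efflux pump ABCC1 was not called, at -0.26. Of 33 apoptosis regulators, 11 fell and 5 rose. Without endotrophin replicate 1, 7 fell, and without endotrophin replicate 2, 3 rose.

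The largest falls were of genes that were low in all 6 resistant libraries. KRT19, the ductal keratin (chromosome 17, 41523617 to 41528308), was at 214 and 201 CPM in sensitive, 2.01 and 1.07 in resistant control, 2.33 and 2.15 in silenced and 1.74 and 2.82 in endotrophin cells (-6.53 (SE 0.21; edgeR adjusted p = 9.46e-16)). GLUL, glutamine synthetase (chromosome 1, 182378098 to 182391790), went from 50.4 and 45.2 to 0.640 and 0.228 CPM (-6.72 (SE 0.47; edgeR adjusted p = 3.29e-10)). In both genes all 6 resistant libraries lay far below both sensitive ones, and no difference was called from the resistant control or from silenced cells. The log2 difference was -6.09 for DCDC2, a microtubule-binding protein of the doublecortin family. It was -5.34 for CRIP1, a LIM-domain protein, and -4.68 for GCNT3, a mucin-type glycosyltransferase. ARMCX2 had 0 counts in both endotrophin libraries and 10.7 and 12.8 CPM in sensitive ones, at least 152-fold lower against a floor of 3 counts in each library. UCA1, a long noncoding RNA known from urothelial carcinoma, was at 9.92 and 6.28 CPM in sensitive cells and 0 in the endotrophin libraries, at least 105-fold lower. ARMCX2 and UCA1 had no count in any resistant library. In all, 42 called genes with a mean of at least 1 CPM in sensitive cells had 0 counts in both endotrophin libraries, and 17 the reverse.

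Of genes with 0 counts in sensitive cells, some were present in all 3 resistant groups and others in the groups with the COL6A3 siRNA alone. FOXR2, a forkhead factor, had 0 counts in sensitive cells and was at 3.40 and 5.28 CPM in resistant control, 2.55 and 3.56 in silenced and 3.34 and 4.25 in endotrophin cells, at least 42.3-fold higher in the last than the floor. IL34, a ligand of the CSF1 receptor, had 0 counts in the resistant control too, and was at 3.97 and 3.09 CPM in silenced and 3.75 and 3.42 in endotrophin cells, at least 40.0-fold higher. RAB7B, a small GTPase of late endosomes, had the same pattern, with 2.26 and 3.77 CPM in endotrophin cells. Among genes with at least 10 CPM in the higher group and at least 3 counts in every library, the largest rises were SLITRK6, a neuronal-type adhesion protein, from 0.384 and 1.49 to 28.8 and 24.8 CPM (4.87 (SE 0.39; edgeR adjusted p = 3.04e-09)), and FLRT3, an adhesion protein that binds latrophilins, from 1.62 and 0.648 to 28.4 and 28.4 CPM (4.62 (SE 0.35)). In the resistant control SLITRK6 was at 1.04 and 2.15 CPM and FLRT3 at 3.92 and 2.02 CPM.

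Epithelial and mesenchymal markers moved in both directions, with list medians of -0.13 and 0.12. Over all genes tested, 13.0% rose and 13.8% fell. Of 21 epithelial markers 2 rose (1 without endotrophin replicate 2) and 7 fell, and of 24 mesenchymal markers 8 rose and 4 fell. Of the 2 epithelial markers that rose, KRT8, a simple-epithelium keratin, went from 1988 and 1977 to 3182 and 3355 CPM (0.72 (SE 0.052)). KRT19, whose large fall is given above, was among the 7 that fell. VIM (vimentin) rose by 0.22 (SE 0.041). CAV1, caveolin-1, fell from 1490.5 and 1470.1 to 635 and 649.7 CPM (-1.20 (SE 0.063)) and WNT5A, a Wnt ligand, rose from 7.21 and 3.72 to 32.1 and 28.0 CPM (2.45 (SE 0.24)). SOX4 and SOX9, progenitor-associated factors, rose by 2.35 (SE 0.15) and 0.54 (SE 0.08). Of the cell-type lists, whose counts of 1 to 4 moved by a gene or 2 when libraries were left out, 2 of 8 hepatocyte markers rose and 1 fell, 2 and 2 of 14 endothelial markers, 4 and 1 of 18 stellate-cell and fibroblast markers, and 0 and 0 of 7 leukocyte markers. The summed level of the 25 leukocyte markers was 94.0 and 95.4 CPM in sensitive and 109.1 and 109.5 CPM in endotrophin libraries, with 18 to 20 of the 25 at 0. The stellate-cell and fibroblast list, which holds COL1A1, summed to 809 and 789.7 CPM in sensitive and 775 and 802 CPM in endotrophin libraries. Its part in the matrix differences was not tested. These sums and those of the leukocyte markers were taken without TMM scaling.

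Some genes stood apart in endotrophin cells from silenced cells as well as from sensitive cells. IGFBP3, the main carrier of insulin-like growth factors, was at 359.8 and 395 CPM in sensitive, 184 and 167 in resistant control, 142 and 147 in silenced and 522 and 558 in endotrophin cells. The difference was 0.52 (SE 0.08; edgeR adjusted p = 3.66e-05) against sensitive cells and 1.90 (SE 0.083) against silenced cells, with silenced libraries below the sensitive pair and endotrophin libraries above it. RRAD, a small GTPase that restrains calcium channels, was at 7.15 and 9.78, 5.77 and 3.03, 18.8 and 21.3 and 72.7 and 73.5 CPM in the same order of groups (3.11 (SE 0.22; edgeR adjusted p = 4.20e-10)), and RARB, a retinoic acid receptor, at 4.05 and 4.57, 2.14 and 1.33, 5.95 and 7.40 and 17.1 and 19.1 CPM (2.07 (SE 0.30)). CRISPLD2, a secreted protein, rose from 2.49 and 3.43 to 11.7 and 13.5 CPM (2.09 (SE 0.37)), and KRT81, a hair keratin with close paralogs that can share reads, from 8.60 and 10.7 to 49.5 and 83.6 CPM (2.79 (SE 0.23)). ANGPTL4, an inhibitor of lipoprotein lipase, was at 61.3 and 74.3 CPM against 20.3 and 29.6 in sensitive and 12.0 and 15.8 in silenced cells, but close to the 49.8 and 58.7 CPM of the resistant control, from which it was not called apart, at 0.32.

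Lower against both groups were SOCS3, AASS and TRANK1. SOCS3, the feedback inhibitor of cytokine signalling, was at 32.4 and 43.9 CPM in sensitive, 36.7 and 37.4 in resistant control, 18.8 and 19.0 in silenced and 11.5 and 7.19 in endotrophin cells (-2.02 (SE 0.20; edgeR adjusted p = 9.50e-08)). AASS, which starts lysine breakdown, was at 84.1 and 68.8, 67.4 and 65.7, 35.9 and 31.2 and 20.9 and 19.1 CPM (-1.94 (SE 0.14)). TRANK1 was at 30.6 and 36.1 CPM in sensitive and 6.86 and 6.93 CPM in endotrophin cells, -1.37 (SE 0.21) against silenced cells and not called against the resistant control, at -0.35.

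**Figure D4:**
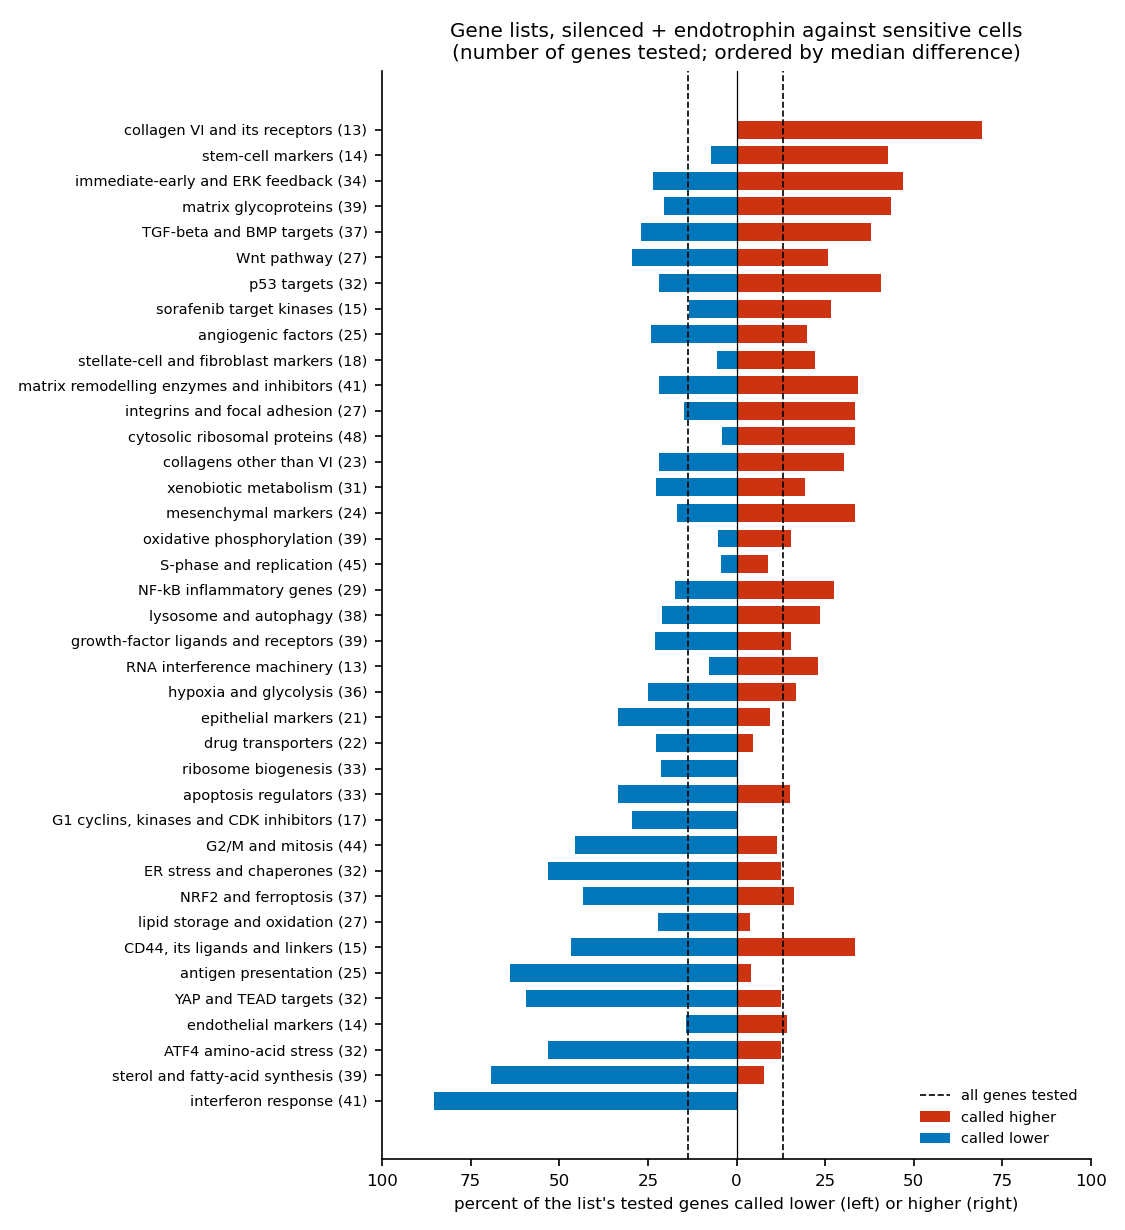
Share of tested members called higher (right) and lower (left) in endotrophin against sensitive cells, for the 39 lists with at least 10 members tested, beside the 13.0% and 13.8% of all genes drawn as lines. The interferon bar lies wholly to the left with 35 of 41 members, the sterol bar mostly so with 27 of 39, and the collagen VI bar wholly to the right with 9 of 13.

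Some large housekeeping groups lay within 2-fold of sensitive cells, a bound that also held for 55.5% of all genes. Among all genes tested, 13.0% were called higher and 13.8% lower. All 39 oxidative phosphorylation genes and all 48 cytosolic ribosomal protein genes had a 95% interval within 2-fold, with medians of 0.043 and 0.13. Of the ribosomal protein genes, 16 rose and 2 fell, and 6 rose without endotrophin replicate 2. Of the oxidative phosphorylation genes, 6 rose and 2 fell, and 3 rose without endotrophin replicate 1. Hypoxia and glycolysis genes had 6 higher and 9 lower of 36. Among the lower was HIF1A, the oxygen-sensing factor, at 201 and 196 CPM in sensitive and 83.7 and 84.7 CPM in endotrophin cells (-1.24 (SE 0.094)). HK2, hexokinase 2, was lower at -1.09 (SE 0.11). NF-kB inflammatory genes had 8 higher and 5 lower of 29, or 5 higher without sensitive replicate 1 or endotrophin replicate 1. IL6 stood at -1.79 (SE 0.42) and IL32 at 2.42 (SE 0.38). For the remaining lists the counts of risen and fallen members were 1 and 6 of 27 for lipid storage and oxidation, 9 and 8 of 38 for lysosome and autophagy, and 7 and 8 of 27 for the Wnt pathway. They were 5 and 6 of 25 for angiogenic factors, 6 and 1 of 14 for stem-cell markers, 3 and 1 of 13 for RNA interference machinery (6 rose without resistant control replicate 2), and 0 and 7 of 33 for ribosome biogenesis, where 4 fell without sensitive replicate 1.

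The differences were not spread evenly over the genome. A chromosome was found in RefSeq for 96.1% of the tested genes. On chromosome 14, 28.4% of genes were lower and 6.53% higher, with a median of -0.25, and on chromosome 15, 24.6% were lower, with a median of -0.22. Chromosome 17 had 21.9% of genes higher and chromosome 18 had 19.7% higher. The chromosome 14 median was -0.22 in the resistant control and -0.23 in silenced cells against the same sensitive libraries, and stood near 0 for endotrophin cells against the resistant control. In 20-Mb bins, chosen after the chromosome values were seen, 20.6% to 32.3% of chromosome 14 genes between 20 and 120 Mb were lower. On chromosome 15, 36.0% were lower between 60 and 80 Mb and 13.6% between 20 and 40 Mb. On chromosome 17, 25.8% to 30.0% were higher beyond 40 Mb, and 14.6% to 15.6% before it. DNA copy number was not measured, and its part in these shares was not tested.

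**Figure D5:**
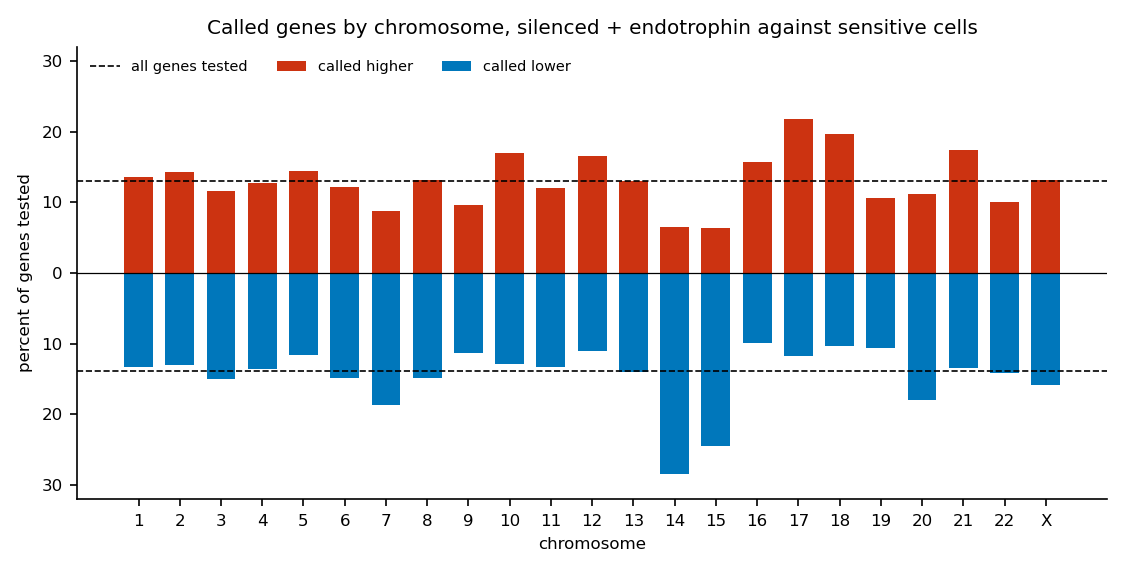
Share of tested genes on each chromosome called higher and lower in endotrophin against sensitive cells, with the share over all genes as lines. Chromosomes 14 and 15 stand out on the lower side, at 28.4% and 24.6%, and chromosome 17 on the higher side, at 21.9%.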

How the data were processed

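Poly(A) RNA from 8 SK-Hep1 libraries in 4 groups of 2 was sequenced. The authors deposited raw counts per gene and FPKM values. In the deposited tables the FPKM of a gene was proportional to its count over the library total, so the counts were tested and FPKM served only as an alternative. The genome build was GRCh38, per the submitters' processing notes, while for the aligner, the counter, the annotation and the use of strand nothing was given in the sources used here. Antisense and overlapping genes are therefore uncertain. Between 72.8% and 77.6% of deposited counts from 1 to 20 were even, as where both reads of a pair are counted, so halved counts were tried.

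Genes passing filterByExpr by group were scaled by TMM and fitted in edgeR 4.0.16 (R 4.3.3) with glmQLFit and glmQLFTest, using 1 coefficient for each of the 4 groups. With 2 libraries per group the spread was pooled over all 8, with 4 residual degrees of freedom. P-values were adjusted by Benjamini-Hochberg over all 15684 genes and called under 0.05. The 1 entry that names no gene held 0% of the counts in every library and was left out. An exact permutation test of 2 libraries against 2 cannot go below p = 0.333. The step was tested on simulated counts. Intervals are 95%. Floors for genes with 0 counts are 3 counts in each library and cover counting error only.

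COL6A3, COL6A1, COL6A2 and CD44 were always named. The rule then took the 10 largest rises and 10 largest falls among called genes whose pairs were apart, with at least 10 CPM in the higher group and 3 counts in every library. It took up to 6 genes per direction with 0 counts in one group. It took up to 5 called members with at least 5 CPM in the higher group from each of 41 lists, and the 6 per direction that differed most from the resistant control and from silenced cells. Other list members were named for their place in a pathway after their values were seen. Values of a few named or listed genes are not reported here. The members and lists were chosen with earlier results of these data known. Gene positions and promoters came from RefSeq for GRCh38.p14.

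Alternatives were RLE and upper-quartile scaling, other filters, DESeq2 1.42.0, limma 3.58.1 on log2(FPKM + 0.1) and log2(FPKM + 1), the 4 compared libraries alone, a replicate block, and each library left out in turn.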

Additional observations from a re-analysis of the deposited data

How the results depend on the processing

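The call count of endotrophin against sensitive cells was 4209 and stayed within 1.5 times of that in every alternative run. It was 4450 with DESeq2, 3587 and 3669 with limma on log2(FPKM + 0.1) and log2(FPKM + 1), 4429 with halved counts, and 3061 to 4503 with 1 library left out. No gene called both here and in an alternative changed direction, and 47.4% to 51.3% of the called genes were higher. Where a library was left out, the lone library of its group was assumed to vary like the others. Against silenced cells the count was 1218, or 490 and 494 on the 2 FPKM scales and 651 to 1637 with 1 library left out. Against the resistant control it was 2981, with 1972 to 3513. The distance of endotrophin from sensitive cells was 0.777, or 0.820 with only the 4 libraries compared, 0.664 with halved counts and 0.778 to 0.823 with 1 library left out. That of the resistant control was 0.723, or 0.597 halved and 0.718 to 0.806, and that of silenced cells 0.763, or 0.652 halved and 0.761 to 0.815. The halved distances were taken over genes that averaged 50 halved counts or more, so they cover fewer genes than the main distances. How far the change of gene set accounts for these moves was not tested, and neither were other causes. Of the single-gene values under alternatives, 4969 kept their direction and side of the threshold, 107 lost the call and 6 gained one. The 1 that reversed had not been called: COL6A1 against silenced cells, at 0.031 without silenced replicate 2, in a leave-one-out range from -0.13. Calls named above that were lost on the FPKM scales were COL6A3 against silenced cells at 0.60 and 0.51, OAS1 against silenced cells at -1.50 and -0.87, and VIM against sensitive cells at 0.23. TRANK1 against silenced cells was not called at -1.27 on log2(FPKM + 0.1), and ACSS2 against the resistant control was called at -0.37 with the stricter filter and at -0.39 on log2(FPKM + 0.1). Same-numbered libraries did not deviate together (r from -0.007 to 0.049), which cannot exclude a shared culture or day. The labels mention neither. With the replicate block, 4315 genes were called. Depth limits the genes with 0 counts: where a pair adds 2 counts, fold bounds against the floor are too high.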
